A study of Bos taurus with 16 samples.

Results

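Inducible enzymes of activated macrophages were followed in cattle cells through 4 of the 27607 genes in the count files, chosen by Ensembl identifier and present in every file. ENSBTAG00000006894 was chosen as NOS2, ENSBTAG00000020602 as IDO1, ENSBTAG00000014127 as PTGS2 and ENSBTAG00000006523 as SOD2. These pairings could not be checked, since the files list identifiers alone and the reference table used here, of 37063 RefSeq genes on the assembly ARS-UCD2.0, matched 0 of the identifiers. Each row is therefore reported by its identifier, and a symbol in brackets stands for the assigned name. Monocyte-derived macrophages (MDMs), which are macrophages grown from blood monocytes, came from 4 Taurine and 4 Indicine animals, breeds that the study names Holstein and Gir. The animals were healthy and 6 to 12 months old. Adherent mononuclear cells were differentiated for 11 days in medium with fetal bovine serum, and the cells of each animal were then given 100 ng/ml LPS from Escherichia coli, a glycolipid on the surface of such bacteria, or medium alone for 48 hours. This gave 16 polyA RNA libraries, 1 per animal and stimulus, in 4 groups of 4: Taurine unstimulated, Taurine LPS, Indicine unstimulated and Indicine LPS. The breed of each library was taken from its label and could not be checked with the counts, and the sources used here do not settle whether these labels are right. The direction of every difference between breeds below therefore follows the labels and is uncertain. The cells were enriched by adherence and not sorted. The study followed their differentiation by microscopy and by flow cytometry for CD14 and CD11b. In the counts their identity could not be checked against marker genes because symbols could not be paired with identifiers.

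NOS2, the inducible nitric oxide synthase, makes nitric oxide from arginine, a gas that harms microbes taken up by phagocytes. IDO1 opens the kynurenine pathway by breaking down tryptophan, which starves some microbes and restrains T cells. PTGS2, also named cyclooxygenase-2, turns arachidonic acid into the precursor of prostaglandins, which act in fever, pain and blood flow. SOD2 is the manganese superoxide dismutase of mitochondria and converts superoxide to hydrogen peroxide. In macrophages, LPS acts through TLR4 and NF-kappaB, and all of these genes are textbook targets of that signal or of the interferons that follow it.

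The libraries held 7362247 to 10296054 counts on genes, so that 1 CPM (1 count per 1000000 counts on genes) corresponded to between 7.36 and 10.3 counts. This unit is not divided by gene length and is used here to compare libraries, not genes. A count of 0 allows up to 3 counts, which is between 0.291 and 0.407 CPM by library, and such limits and the 95% intervals of ratios given below cover counting error only. A gene was called when edgeR's quasi-likelihood test on TMM-scaled counts gave an adjusted p (false discovery rate, FDR) under 0.05 over all genes tested and the log2 fold change reached 1 in either direction. Genes were tested where at least 4 libraries of the comparison had at least 1 CPM. Each comparison of LPS with unstimulated MDMs was also fitted with the animal as a block, since by the labels both stimuli came from the same animal. The counts did not bear this pairing out for Indicine animals 2 and 6, so blocked and within-animal results rest on the labels. Ratios of CPM use library totals, on which the median log2 change with LPS over all genes tested was -0.19, against -0.04 with TMM. Comparisons share libraries, so their results are not independent of each other.

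Over both breeds, SOD2 and NOS2 transcripts were higher in LPS treated than in unstimulated MDMs of the same animal in 8 of 8 animals and PTGS2 transcripts in 7 of 8, Indicine animal 6 being the exception, and IDO1 showed no common direction. With the animal as a block, edgeR called 3 of the 4 identifiers, all higher with LPS, where 1.82% of 12968 genes tested were called higher with LPS and 5.47% in either direction. ENSBTAG00000006523 (SOD2) rose 5.51-fold (log2 fold change 2.46, SE 0.22, adjusted p = 4.51e-04), ENSBTAG00000014127 (PTGS2) 3.30-fold (1.72, SE 0.29, adjusted p = 0.00461) and ENSBTAG00000006894 (NOS2) 2.92-fold (1.55, SE 0.34, adjusted p = 0.0165). ENSBTAG00000020602 (IDO1) had a log2 fold change of 0.76 (SE 0.72, adjusted p = 0.514). Without the block edgeR called SOD2 alone, where 1.03% of genes were called higher with LPS (log2 fold change 2.40, SE 0.30, adjusted p = 0.00137), while PTGS2 had 1.74 (SE 0.59, adjusted p = 0.123, and 0.0228 by DESeq2) and NOS2 1.68 (SE 0.68, adjusted p = 0.185), which was 0.97 without Taurine animal 50 (adjusted p = 0.438). In bulk RNA of this kind, fewer cells carrying a transcript and less of it per cell cannot be told apart.

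**Figure D1:**
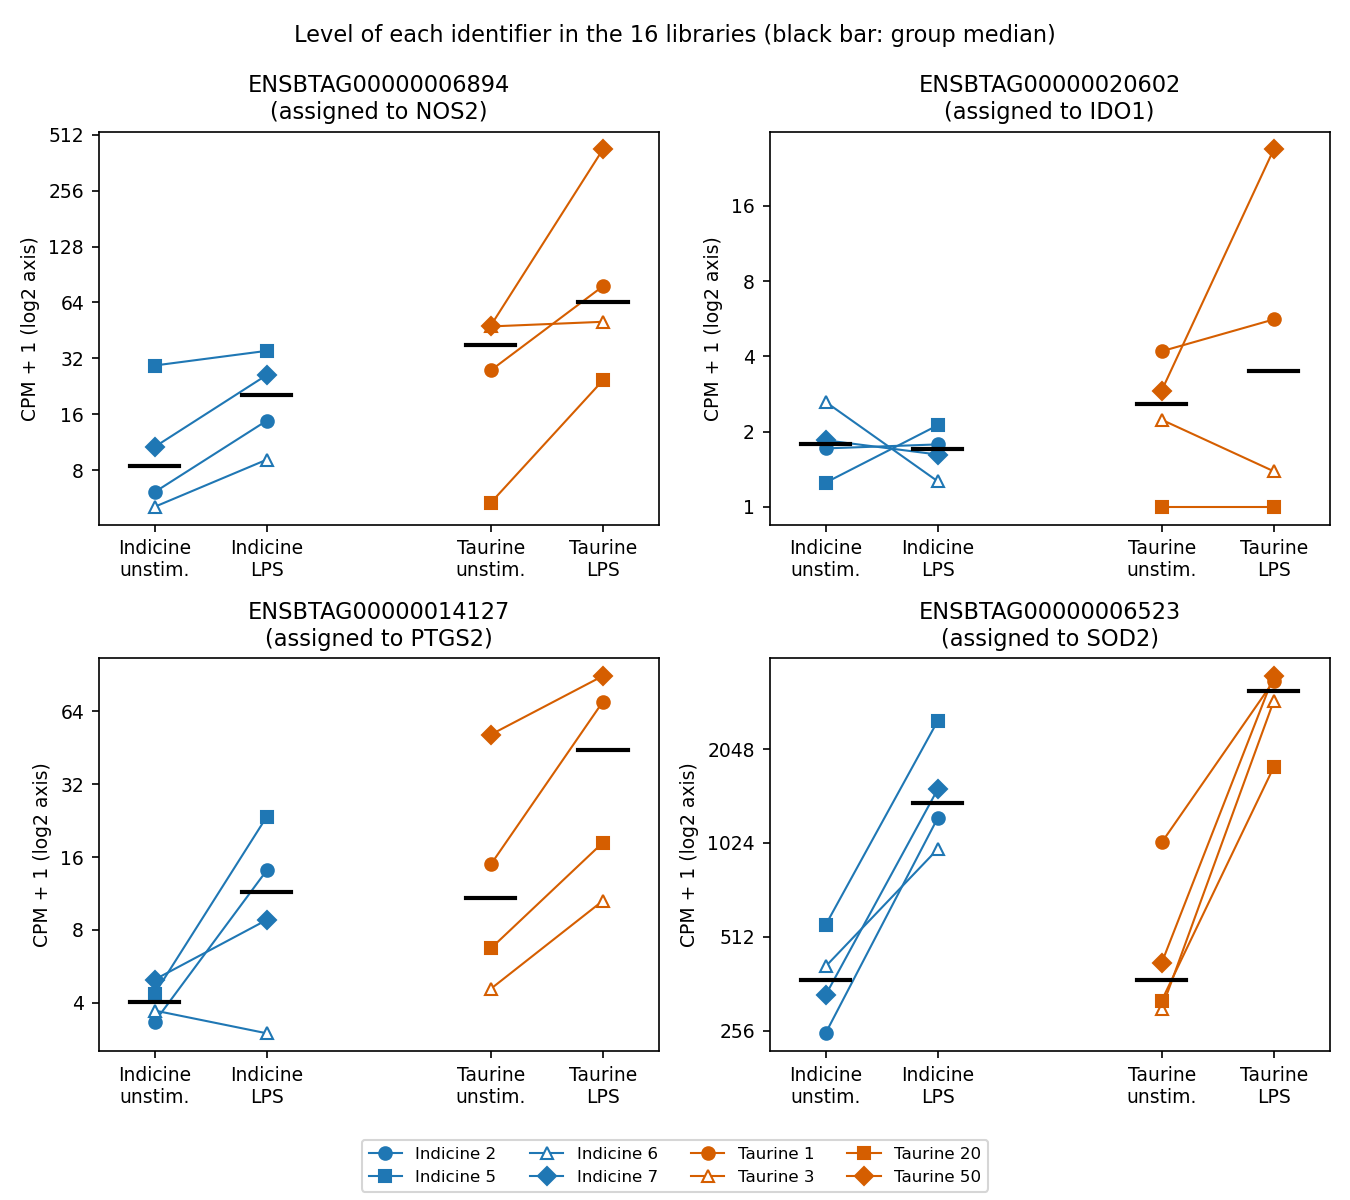
Level of each identifier in the 16 libraries, as CPM + 1 on a log2 axis, for Indicine (blue) and Taurine (orange) MDMs without and with LPS. Points are libraries, lines join the same animal and black bars are group medians. All 8 lines climb for SOD2 and NOS2 and 7 of 8 for PTGS2, while IDO1 climbs steeply in Taurine animal 50 alone.

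ENSBTAG00000006894 (NOS2) was detected in every library. In unstimulated Indicine MDMs it stood at 5.09, 28.3, 4.07 and 9.67 CPM in animals 2, 5, 6 and 7, and with LPS at 13.8, 34.1, 8.10 and 25.0 CPM. In unstimulated Taurine MDMs it stood at 26.6, 46.5, 4.34 and 47.0 CPM in animals 1, 3, 20 and 50, and with LPS at 77.2, 49.3, 23.3 and 425.6 CPM. Animal 50 thus stood far above the other Taurine animals with LPS although its unstimulated level was close to that of animal 3. It held 4382 of the 5564 counts of the LPS treated Taurine group (78.8%). The Taurine range with LPS overlapped the Indicine range through animal 20, and 3 of 4 Taurine libraries lay above every Indicine library.

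Every animal had more ENSBTAG00000006894 with LPS than without, a pattern seen in 2.49% of the 12968 genes tested. The ratio of CPM ran from 1.06 in Taurine animal 3, whose 95% counting interval of 0.918 to 1.23 included no change, to 9.05 in Taurine animal 50 (8.16 to 10.1). In the other 6 animals it was 1.21 and 2.90 in Indicine 5 and Taurine 1, 1.99, 2.59 and 2.70 in Indicine 6, 7 and 2, and 5.38 in Taurine 20. The interval lay above 1 in 7 of 8 animals. On the log2(CPM + 1) scale the difference within animals was 1.32 ± 1.00 (SD, n = 8, exact two-sided sign-flip permutation test, p = 0.00781, the smallest that 8 animals allow). The 4 Taurine animals alone gave no call with the block (log2 fold change 1.98, SE 0.54, adjusted p = 0.0803 by edgeR), nor did the 4 Indicine animals (1.14, SE 0.23, adjusted p = 0.107). With the block, edgeR called it in Taurine without animal 3 (2.65, adjusted p = 0.00170), and without animal 50 the log2 fold change was 1.37 (adjusted p = 0.218 by edgeR). DESeq2's Wald test with the block called it in Taurine (adjusted p = 0.0205) and in Indicine (adjusted p = 0.00293).

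Between the breeds, the medians of ENSBTAG00000006894 were ordered as 7.38 CPM in unstimulated Indicine, 19.4 in Indicine with LPS, 36.5 in unstimulated Taurine and 63.3 in Taurine with LPS, and the ranges of neighbours in this order overlapped. MDMs labelled Taurine, with LPS, had a mean of 143.9 ± 189 CPM against 20.2 ± 11.6 CPM in those labelled Indicine (SD, n = 4 each), a log2 difference of 2.83 (SE 0.89), with its direction as uncertain as the breed labels, that edgeR's quasi-likelihood test did not call (adjusted p = 0.0892). This difference rested largely on animal 50: without it the log2 difference was 1.2 (SE 0.50, adjusted p = 0.236 by edgeR). DESeq2's Wald test called it (2.84, SE 0.96, adjusted p = 0.0270), as did edgeR without Taurine animal 20 (3.19, SE 0.79, adjusted p = 0.0384). In unstimulated MDMs the log2 difference was 1.32 (SE 0.82, adjusted p = 0.575), with 31.1 ± 20.2 CPM in Taurine and 11.8 ± 11.3 CPM in Indicine (SD, n = 4 each). Leaving out 1 animal, it ranged from 1.03 without Indicine animal 6 (adjusted p = 0.878 by edgeR) to 2.26 without Indicine animal 5 (adjusted p = 0.461 by edgeR). The rise with LPS was 1.51 larger in Taurine on the log2 scale (SE 1.28), which the direct test of the difference in response did not call (unadjusted p = 0.255 from edgeR over all genes), and without animal 50 it was 0.12 larger. With the block it was 0.82 larger (SE 0.66, unadjusted p = 0.246 from edgeR), and 1.45 without Taurine animal 3 (unadjusted p = 0.0119, adjusted p = 0.324) and 0.24 without animal 50 (unadjusted p = 0.685).

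ENSBTAG00000020602 (IDO1) was close to the limit of detection in these cells. Its counts lay between 0 and 36 in 15 of the 16 libraries and reached 267 in the LPS treated MDMs of Taurine animal 50. At least 1 CPM was reached in 7 libraries, of which 5 were Taurine. In Indicine animals 2, 5, 6 and 7 the level was 0.713, 0.249, 1.63 and 0.846 CPM without LPS and 0.777, 1.12, 0.266 and 0.619 CPM with LPS. In Taurine animals 1, 3, 20 and 50 it was 3.19, 1.23, 0 and 1.92 CPM without LPS and 4.62, 0.387, 0 and 25.9 CPM with LPS. Animal 20 thus had no count in either library, which allows up to 0.342 CPM without and 0.352 CPM with LPS.

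The direction of ENSBTAG00000020602 differed between animals, with 4 higher and 3 lower with LPS and animal 20 at 0 under both stimuli. In Taurine animal 50 the ratio of CPM was 13.5 (95% counting interval 8.16 to 24.0), from 16 and 267 counts. In Indicine animal 6 it was 0.163 (0.0177 to 0.732), from 12 and 2 counts. The counting intervals of the other 5 animals with counts included 1. The difference within animals was 0.31 ± 1.30 on the log2(CPM + 1) scale (SD, n = 8, exact two-sided sign-flip permutation test, p = 0.672), and without animal 50 it was -0.10. The identifier did not reach 1 CPM in 4 libraries, and so was not tested, in the LPS comparison within Indicine and in the breed comparison with LPS. With no filter its log2 difference between LPS treated Taurine and Indicine MDMs was 3.43 (SE 1.25, adjusted p = 0.147 by edgeR), where animal 50 held 267 of the 306 Taurine counts (87.3%). Within Taurine its log2 fold change with the block was 1.79 (SE 0.96, adjusted p = 0.306 by edgeR), which was 2.50 and called without animal 3 (adjusted p = 0.0498) and 0.05 without animal 50. In unstimulated MDMs the log2 difference between the breeds was 0.79 (SE 0.94, adjusted p = 0.777 by edgeR). The response to LPS was 2.65 larger in Taurine on the log2 scale (SE 1.83, unadjusted p = 0.169 from edgeR), and without animal 50 it was 0.38. With the block it was 1.64 (SE 1.37, unadjusted p = 0.261 from edgeR).

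ENSBTAG00000014127 (PTGS2) was low and narrowly spread in unstimulated Indicine MDMs, with 2.34, 3.36, 2.72 and 3.99 CPM in animals 2, 5, 6 and 7. With LPS these animals had 13.1, 22.5, 1.99 and 7.80 CPM, so that animal 6 did not follow the other 3. Unstimulated Taurine MDMs covered a range of 14.1-fold, with 13.9, 3.57, 5.71 and 50.3 CPM in animals 1, 3, 20 and 50. With LPS they had 69.1, 9.56, 17.4 and 88.6 CPM. The Taurine animals kept the same order without and with LPS, and animal 50 without LPS lay above every Indicine library of either stimulus.

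The ratio of LPS treated to unstimulated CPM of ENSBTAG00000014127 was above 1 in 7 of 8 animals, each with its counting interval above 1, and at least 7 animals were higher with LPS for 6.1% of the genes tested. It was 6.68 in Indicine 5, 5.59 in Indicine 2, 4.96 in Taurine 1, 3.04 in Taurine 20, 2.68 in Taurine 3, 1.96 in Indicine 7 and 1.76 in Taurine 50. In Indicine animal 6 it was 0.734, with a 95% counting interval of 0.349 to 1.51 from 20 and 15 counts. Taurine animal 50, with the highest unstimulated level, had the smallest ratio among the Taurine animals and a gain of 38.3 CPM. The difference within animals was 1.34 ± 0.91 on the log2(CPM + 1) scale (SD, n = 8, exact two-sided sign-flip permutation test, p = 0.0156).

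Within Taurine the block changed the call of ENSBTAG00000014127. The log2 fold change was 1.56 (SE 0.94, adjusted p = 0.846 by edgeR) without the block and 1.73 (SE 0.23, adjusted p = 0.0147 by edgeR) with it, and in the blocked comparison 1.78% of genes were called higher with LPS. With the block the log2 fold change was 1.39 without animal 1 (adjusted p = 0.0567 by edgeR) and 1.68 without animal 20 (adjusted p = 0.0937), where 108 and 8 of all genes were called. Within Indicine it was 2.01 (SE 0.60, adjusted p = 0.234 by edgeR) without and 1.73 (SE 0.52, adjusted p = 0.209) with the block, and DESeq2's Wald test called it (adjusted p = 0.0210). Between the breeds, unstimulated Taurine MDMs had 18.4 ± 21.7 CPM and Indicine 3.1 ± 0.726 CPM (SD, n = 4 each), a log2 difference of 2.48 (SE 0.79, adjusted p = 0.277 by edgeR and 0.0344 by DESeq2) that was 1.23 without Taurine animal 50. With LPS, MDMs labelled Taurine had 46.1 ± 38.7 and those labelled Indicine 11.3 ± 8.70 CPM (SD, n = 4 each), a log2 difference of 1.98 (SE 0.80, adjusted p = 0.184 by edgeR) that was 1.38 without Taurine animal 50 and 2.59 without Indicine animal 5. The medians rose from 3.04 CPM in unstimulated Indicine through 9.81 in unstimulated Taurine and 10.4 in Indicine with LPS to 43.2 in Taurine with LPS, and the ranges of neighbours overlapped. The response to LPS differed between the breeds by -0.50 on the log2 scale (SE 1.19), Taurine minus Indicine, with an unadjusted p of 0.678 from edgeR. With the block it differed by -0.10 (SE 0.57, unadjusted p = 0.865 from edgeR). Its sign was not stable when 1 animal was left out, with -0.85 to 0.12 without and -0.49 to 0.34 with the block.

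**Figure D2:**
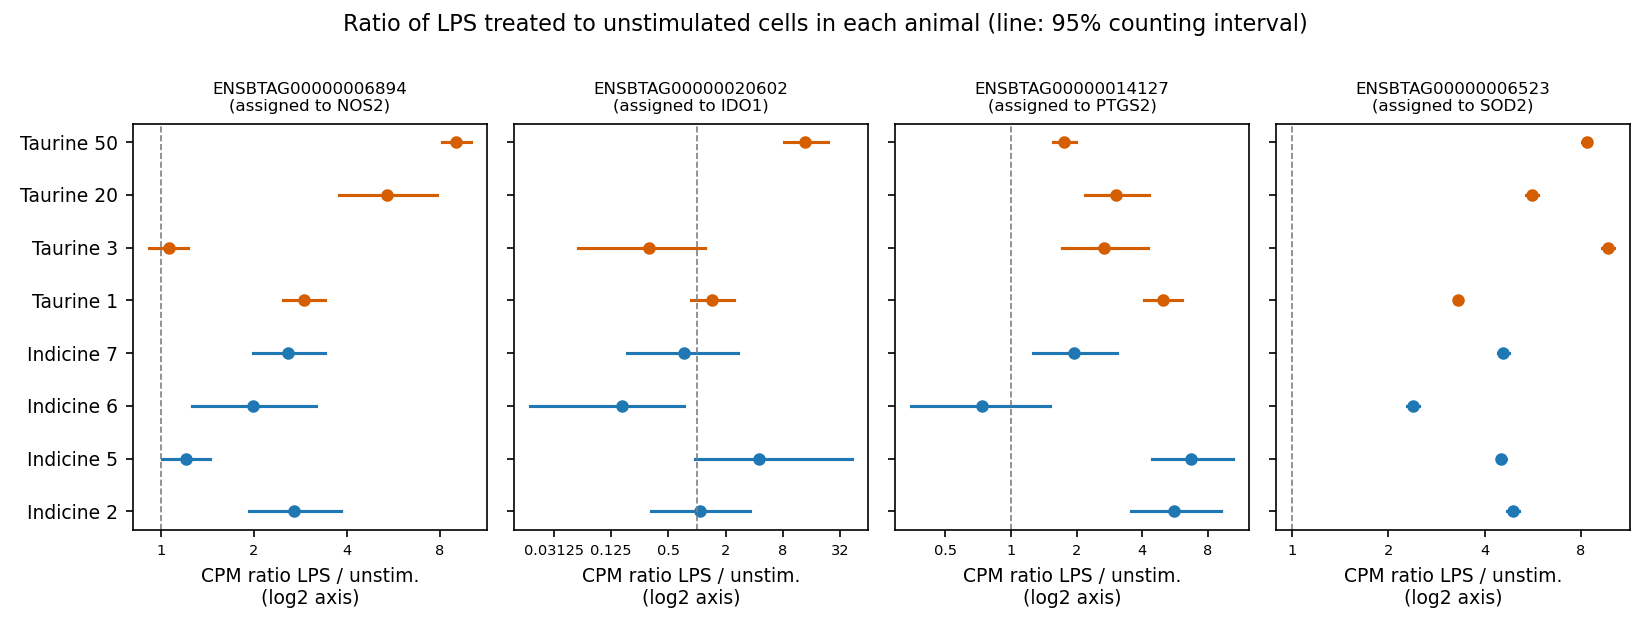
Ratio of CPM in LPS treated to unstimulated MDMs of each animal on a log2 axis, with lines for the 95% counting interval and a dashed line at no change. SOD2 lies between 2.38 and 9.72 in all 8 animals, NOS2 between 1.06 and 9.05, PTGS2 is under 1 in Indicine 6, and IDO1 scatters on both sides (Taurine 20, with 0 counts, is not drawn).

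ENSBTAG00000006523 (SOD2) was abundant in every library, with 2441 to 36190 counts, and its counting error was small beside the differences between animals. In Indicine animals 2, 5, 6 and 7 it stood at 250.1, 557, 410 and 332 CPM without LPS and at 1228, 2518, 977 and 1519 CPM with LPS. In Taurine animals 1, 3, 20 and 50 it stood at 1027, 300.4, 319 and 421 CPM without LPS and at 3388, 2921, 1792 and 3515 CPM with LPS. Within each breed every LPS treated library lay above every unstimulated library, which held for 1.42% of 12400 genes in Taurine and 1.62% of 11913 genes in Indicine, and among the 4 identifiers for SOD2 alone. Over both breeds 7 of 8 LPS treated libraries exceeded the highest unstimulated one, that of Taurine animal 1.

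The ratio of LPS treated to unstimulated CPM of ENSBTAG00000006523 was 4.91, 4.52, 2.38 and 4.58 in Indicine animals 2, 5, 6 and 7, and 3.30, 9.72, 5.62 and 8.34 in Taurine animals 1, 3, 20 and 50. The lowest lower limit of the 95% counting intervals was 2.28, in Indicine animal 6. Taurine animal 1, which had the highest unstimulated level, had the smallest ratio of its breed, and its LPS level was the second highest of the 16 libraries. The difference within animals was 2.31 ± 0.66 on the log2(CPM + 1) scale (SD, n = 8, exact two-sided sign-flip permutation test, p = 0.00781, the smallest possible).

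In the separate breeds the calls of ENSBTAG00000006523 by edgeR differed with the block. In Taurine the log2 fold change was 2.69 (SE 0.45, adjusted p = 0.136) without and 2.84 (SE 0.29, adjusted p = 0.00866) with the block by edgeR, and with the block 30 of 12400 genes had a higher log2 fold change. In Indicine it was 2.14 (SE 0.36, adjusted p = 0.108) without and 2.13 (SE 0.20, adjusted p = 0.0343) with the block by edgeR. Without the block it was called by DESeq2's Wald test in Taurine (adjusted p = 1.72e-07) and in Indicine (adjusted p = 3.88e-07), and by edgeR with 1 model over the 16 libraries in Taurine (adjusted p = 0.0169) but not in Indicine (adjusted p = 0.163). SOD2 was the 1 identifier called in Indicine with the block, where 0.168% of 11913 genes tested were called higher with LPS. These blocked calls were lost in some sets of 3 animals while the log2 fold change stayed close. It was 2.86 in Taurine without animal 20 (adjusted p = 0.0739 by edgeR), where 8 of all genes were called, and 2.06 and 2.05 in Indicine without animals 5 and 7 (adjusted p = 0.0669 and 0.241 by edgeR), where 5 and 0 were.

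Between the breeds, unstimulated MDMs had nearly equal medians of ENSBTAG00000006523, 370.0 CPM in Taurine and 371 in Indicine, and the log2 difference was 0.31 (SE 0.43, adjusted p = 0.809 by edgeR). With LPS the medians were 3154 CPM in Taurine and 1374 in Indicine, with means of 2904 ± 784 and 1561 ± 675 CPM (SD, n = 4 each). This log2 difference of 0.85 (SE 0.33) was under the limit of 1 and was not called (adjusted p = 0.169 by edgeR). Leaving out 1 animal, it ranged from 0.68 without Indicine animal 6 (adjusted p = 0.302 by edgeR) to 1.2 without Indicine animal 5 (adjusted p = 0.0346). Without Taurine animal 50 it was 0.70 (adjusted p = 0.325 by edgeR). The response to LPS was 0.52 larger in Taurine on the log2 scale (SE 0.57, unadjusted p = 0.375 from edgeR), and 0.67 larger with the block (SE 0.37, unadjusted p = 0.103). Leaving out 1 animal, this difference ranged from 0.28 to 1.00 without the block and from 0.47 to 0.96 with it. With the block the lowest unadjusted p among these sets was 0.0138 and the lowest adjusted p 0.506, by edgeR. In order of median, unstimulated Taurine and Indicine did not differ beyond their spread, and Indicine with LPS stood above unstimulated Indicine and overlapped unstimulated Taurine through Taurine animal 1 alone. Taurine with LPS was highest, with 3 of 4 libraries above every Indicine one.

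**Figure D3:**
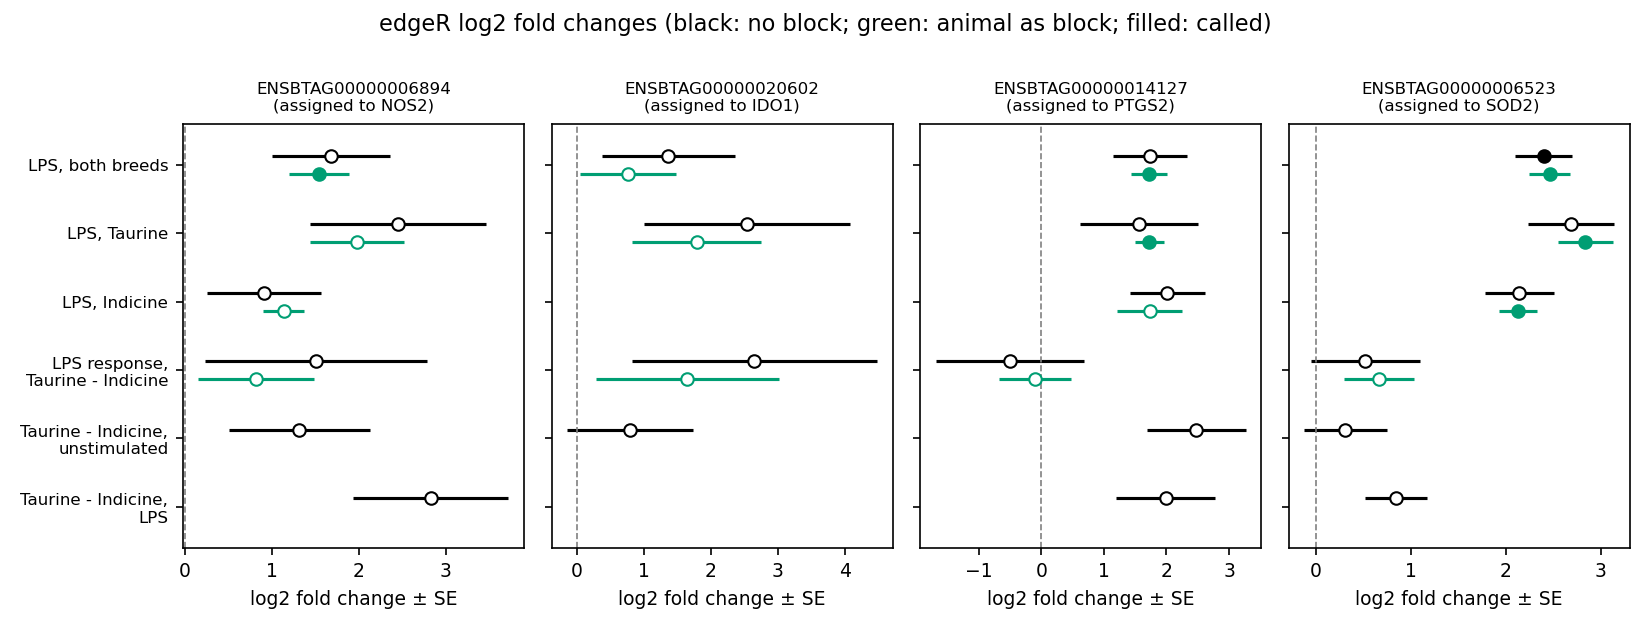
Log2 fold change of each identifier in 6 comparisons, with bars of 1 standard error from edgeR's quasi-likelihood test, without the block (black) and with the animal as a block (green). Filled points were called. SOD2 is filled for LPS in every fit with the block, PTGS2 over both breeds and in Taurine, NOS2 over both breeds and SOD2 also over both breeds without it, and no comparison between breeds is filled.

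Set side by side, the 4 identifiers gave few calls in the separate comparisons. Between LPS treated and unstimulated Taurine MDMs 0 of the 4 were called by edgeR's quasi-likelihood test (0% of 12400 genes were called), while 2 had an unadjusted p under 0.05, as did 841 of all genes, and DESeq2 called 1, as it did 159 of all genes. With the block edgeR called 2, where 3.81% of genes were called in either direction. In Indicine edgeR called 0 of 3 (0% of 11913 genes), with 2 at an unadjusted p under 0.05 (1393 of all genes) and 2 called by DESeq2 (267 of all genes). With the block edgeR called 1 there, where 26 of 11913 genes (0.218%) were called in either direction. Between unstimulated MDMs of the breeds it called 0 of 4, where 0.318% of 12565 genes were called and 0.0796% were called higher in Taurine, with 1 at an unadjusted p under 0.05 (1475 of all genes) and 1 called by DESeq2 (285 of all genes). Between LPS treated MDMs of the breeds it called 0 of 3, where 7.35% of 11986 genes were called and 3.26% were called higher in Taurine. There all 3 had an unadjusted p under 0.05, as did 2515 of the 11986 genes. All 3 had a higher fitted level in Taurine, as did 6240 genes, and DESeq2 called 1 of them and 1116 genes in all.

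No identifier separated the breeds completely. In unstimulated MDMs 3.18% and in LPS treated MDMs 7.98% of genes tested had every Taurine library above every Indicine library, and 0 of the 4 identifiers did in either. When the response to LPS was compared between breeds, edgeR called 0 of 4 identifiers (0% of 12968 genes). An unadjusted p under 0.05 was found for 0 of the 4 and for 249 of all genes. DESeq2 called 0 of the 4 and 1 of all genes. With the block edgeR called 0 of the 4 and 0 of all genes. The exact permutation test of the breed labels on the within-animal differences gave p = 0.257 for NOS2, 0.514 for IDO1, 0.800 for PTGS2 and 0.200 for SOD2 (two-sided, 4 tests not adjusted, n = 4 animals per breed, smallest possible p = 0.0286). Leaving out each animal in turn, the exact permutation test gave p = 0.0286 to 0.543 for NOS2, lowest without Taurine animal 3 (difference 1.36) and highest without Taurine animal 50 (0.34), and 0.0286 to 0.400 for SOD2, lowest without Taurine animal 1 (0.96) and highest without Taurine animal 3 (0.45), where 0.0286 is again the smallest possible. For NOS2 the mean log2(CPM + 1) difference was 1.73 ± 1.29 in Taurine and 0.92 ± 0.48 in Indicine, and for SOD2 it was 2.64 ± 0.69 and 1.98 ± 0.49 (SD, n = 4 each).

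**Figure D4:**
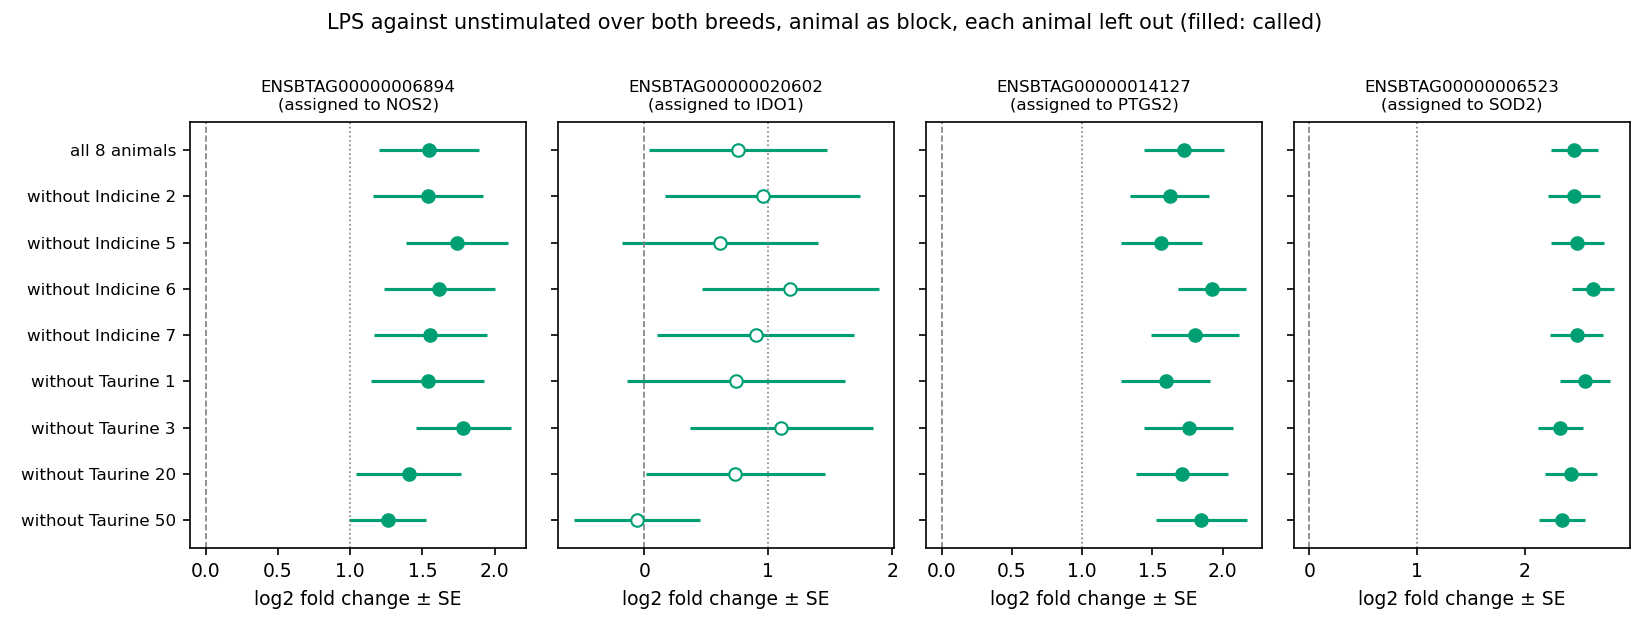
Log2 fold change of LPS against unstimulated MDMs over both breeds, with the animal as a block and bars of 1 standard error, for all 8 animals and with each animal left out. NOS2 (1.26 to 1.78), PTGS2 (1.56 to 1.92) and SOD2 (2.33 to 2.64) stay called (filled) in all 8 reduced sets, and IDO1 drops to -0.06 without Taurine animal 50.

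The calls over both breeds with the block held in each of the 8 sets that left out 1 animal. The highest adjusted p among these sets, by edgeR, was 0.0457 for NOS2, 0.0180 for PTGS2 and 0.00269 for SOD2. NOS2 came closest to the threshold without Taurine animal 20, and its log2 fold change was lowest, at 1.26 (SE 0.27), without Taurine animal 50. IDO1 was called in 0 of the 8 sets, and its adjusted p ranged from 0.287 to 0.957.

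The animals did not rank alike for the 4 enzymes. Taurine animal 50 had the highest LPS level of all 4 identifiers, at 425.6 CPM for NOS2, 25.9 for IDO1, 88.6 for PTGS2 and 3515 for SOD2, and the largest ratio for NOS2 and IDO1, whereas the largest ratio was in Indicine animal 5 for PTGS2 and in Taurine animal 3 for SOD2. Taurine animal 3 combined the smallest ratio of NOS2 with the largest of SOD2. Indicine animal 6 had the smallest ratio of IDO1, PTGS2 and SOD2 and its NOS2 rose 1.99-fold. Within Indicine, animal 5 had the highest LPS level of each identifier and animal 6 the lowest.

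Over the 16 libraries, which come in 8 pairs from the same animals, the gene whose log2(CPM + 1) was most like that of ENSBTAG00000006523 (SOD2) was ENSBTAG00000003791, with a Pearson correlation of 0.970 among 12967 genes compared, and it was 0.973 without the 2 libraries of animal 50. For ENSBTAG00000006894 (NOS2) it was ENSBTAG00000014825 (0.942, and 0.918 without animal 50), and for ENSBTAG00000014127 (PTGS2) it was ENSBTAG00000003842 (0.936, and 0.914). For ENSBTAG00000020602 (IDO1) the closest was ENSBTAG00000021177, at 0.819 with and 0.434 without animal 50. A correlation over 0.9 was found with 20 genes for SOD2, 5 for PTGS2, 3 for NOS2 and 0 for IDO1. These are descriptions over libraries that share animals, and the symbols of these genes were not paired here.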

How the data were processed

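Per the study's methods, the authors sequenced stranded polyA libraries in pairs of 100 bp, aligned them to ARS-UCD1.2 with STAR 2.6.0c and counted uniquely mapped reads per Ensembl gene with HTSeq 0.10.0. The strand setting is not given in the sources used here, and the processing notes in the labels name the build UMD3.1. The deposited files hold raw counts without normalization for 27607 genes and 5 counters, which were left out of library totals and made up 18.4% to 23.2% of the sum (the counter that repeats another was taken once).

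Breed, stimulus and animal number were taken from the labels. Groups of LPS and unstimulated libraries share animal numbers, and a shared number marks the same animal, so animals were paired. The correlation of deviations from the group means within a pair was 0.658 to 0.854 in Taurine and 0.0212 to 0.398 in Indicine, where animals 2 and 6 correlated more highly with another animal (0.0310 against 0.0212, and 0.332 against 0.232). The pairing therefore rests on the labels. Of 24 pairs of libraries within groups, 0 agreed within counting noise.

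Fits used R 4.3.3, edgeR 4.0.16 (filter of 1 CPM in 4 libraries, TMM, glmQLFit, glmQLFTest), DESeq2 1.42.0 and limma 3.58.1, and permutation tests Python 3.11.15. Standard errors of edgeR were derived as |log2 fold change| over the root of its F statistic. Ratios within animals use library totals and exact binomial (Clopper-Pearson) 95% intervals. Alternatives were DESeq2 size factors, library totals, no filter, DESeq2's Wald test, FDR alone, 1 model over 16 libraries, the animal as a block and leaving out each animal, and for within-animal differences a pseudocount of 0.25 in place of 1 CPM or TMM-scaled totals. Without an animal, 3 libraries sufficed for the filter in comparisons of a pair of groups, and combinations of the block with other settings were added after seeing the data. The fits were tested on simulated data.

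The 4 identifiers and the lists were chosen with earlier results of these data known. Named genes are the 4 identifiers and, for each, the gene with the highest correlation. Planned lists of arginine, kynurenine, prostanoid and peroxide genes and of cell type markers were not analysed, since they need symbols. No sequences were used here.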

Additional observations from a re-analysis of the deposited data

Results flagged for a closer look

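Among the 24 sets of 4 values examined (levels in each group and differences within animals), 3 had a value whose gap to its nearest neighbour made up more than 0.829 of the whole range. For values with a normal distribution chance gives about 1 in 20. Levels were taken in CPM and not on a log scale, where a high value stands out less, so this rate may not hold for them. ENSBTAG00000006894 (NOS2) reached 425.6 CPM in LPS treated MDMs of Taurine animal 50, with a gap of 0.866 of the range. ENSBTAG00000006523 (SOD2) stood at 1027 CPM in unstimulated MDMs of Taurine animal 1, with a gap of 0.834. The rise of ENSBTAG00000006523 in Indicine animal 6, at 1.25 on the log2(CPM + 1) scale, lay under those of the other 3 Indicine animals, with a gap of 0.887. The part of culture, depth or cell composition in these 3 values was not tested.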

How the results depend on the processing

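DESeq2's Wald test moved the number of identifiers called to 1 in Taurine, 2 in Indicine, 2 over both breeds, and 1 in each breed comparison, unstimulated or with LPS. Of all genes it called 159 of 12400, 267 of 11913, 666 of 12968, 285 of 12565 and 1116 of 11986 in these comparisons. With the animal as a block in edgeR the number was 2 in Taurine, 1 in Indicine and 3 over both breeds. There 472, 26 and 709 of all genes were called. The fit with 1 model over 16 libraries gave 1 in Taurine, with 36 of 12968 genes called. Between the breeds with LPS, leaving out 1 animal gave 0 to 1, with 712 to 977 genes called. With the block, leaving out 1 animal gave 0 to 4 in Taurine (0 without animal 20, 4 without animal 3 and 1 without animal 1, where 8, 1239 and 108 of all genes were called). In Indicine it gave 0 to 1, with 0 to 191 of all genes called. Also with the block in Indicine, no filter gave 2, with 282 of 18641 genes called, and DESeq2 3, with 299 of 11913.

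The sign of some values changed between settings, and the cause was not tested. Leaving out an animal, the log2 difference of SOD2 between unstimulated breeds ranged from -0.21 (without Taurine 1) to 0.54. For IDO1 the log2 fold change over both breeds with the block was 0.76 with all animals and ranged from -0.059 (without Taurine 50) to 1.18. The difference between breeds in its response with the block was 1.64 with all animals and ranged from -0.0067 to 2.41. For PTGS2 the difference in response ranged from -0.85 to 0.12 without and from -0.49 to 0.34 with the block, where DESeq2 gave 0.035. On the log2(CPM + 1) scale, the difference within animals of IDO1 ranged from -0.10 to 0.51 and the breed difference in that of PTGS2 from -0.35 to 0.56.

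Over all genes, edgeR called 0 in Taurine, 0 in Indicine, 40 between unstimulated breeds and 211 over both breeds, against 159, 267, 285 and 666 with DESeq2. With the block these were 472 in Taurine, 26 in Indicine and 709 over both breeds, and without 1 animal 8 to 1239, 0 to 191 and 416 to 854. Of the 211 genes called over both breeds 133 were higher with LPS, and on library totals 114 of 354, while the number of identifiers called was equal under both scalings. Depth limits IDO1 most, with 412 counts over the 16 libraries.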
